A study of Mus musculus with 16 samples.

Results

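Conjugation enzymes attach a polar group to a small molecule, which makes it easier to carry out of the cell. Glutathione S-transferases (GSTs) join it to glutathione, UDP-glucuronosyltransferases (UGTs) transfer glucuronic acid from UDP-glucuronate, and cytosolic sulfotransferases (SULTs) transfer sulfate from the donor PAPS. In nasal tissue these enzymes are known for clearing inhaled chemicals and odorants, and *Ugt2a1* is known as a UGT of the main olfactory epithelium.

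The genes described here are those listed in both the count and the RPKM tables under a GST, microsomal GST, UGT or SULT symbol (*Gsta*, *Gstm*, *Gsto*, *Gstp*, *Gstk*, *Gstt*, *Gstz*, *Mgst*, *Ugt1* to *Ugt8* and *Sult*), with *Mgst2* left out. They number 63 of 24340 genes, of which 23 are GSTs, 21 are UGTs and 19 are SULTs. The tissue was the vomeronasal organ (VNO), the pheromone-sensing organ of the nose, of mice of the Hsd:ICR background at 12 weeks of age. High Runner (HR) lines 3, 6, 7 and 8 were bred for high voluntary wheel running and were at generation 88, and Control lines 1, 2, 4 and 5 were bred without that selection. Each of the 8 lines gave 1 male and 1 female library, each made from the pooled VNOs of 3 mice, so that a value describes a pool and not a mouse.

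The libraries held 15998552 to 70875276 counts on genes, and the 63 members took 0.129% to 0.204% of them. RPKM (reads scaled by gene length in kilobases and by library size) is a level per length and was used to rank genes against each other. Counts were used for the main tests, and RPKM for some of the alternatives. The defining markers of vomeronasal sensory neurons were present in all libraries, with a summed level of *Omp*, *Trpc2*, *Gnao1*, *Gnai2* and *Gng13* of 1476 to 3000 RPKM in Control lines and 1798 to 2826 RPKM in HR lines. Nasal gland markers varied most, from 11830 to 227786 RPKM in Control lines and from 1892 to 194303 RPKM in HR lines. In 5 libraries (males of Control lines 4 and 5, males of HR lines 3 and 6, and females of HR line 6) *Cyp2g1*, a cytochrome P450 of the main olfactory mucosa, exceeded 2 RPKM. In RNA from whole tissue, fewer cells of a type and less RNA per cell cannot be told apart.

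Of the 63 members, 34 had enough counts to be tested. Those 34 were all members with a mean of at least 1 RPKM, which were 31, together with *Sult5a1*, *Ugt1a7c* and *Sult6b1*. The other 29 had at most 29 counts in any library. Among them 12 had no count in any library (*Sult2a2* to *Sult2a5*, *Sult2a7*, *Sult3a1*, *Ugt1a9*, *Ugt1a10*, *Ugt2b5*, *Ugt2b36*, *Ugt2b37* and *Ugt3a1*), which allows up to 3 counts per library, or 0.0423 to 0.188 CPM (counts scaled to library size) depending on depth, for counting error only. By class, 19 of 23 GSTs, 5 of 21 UGTs and 7 of 19 SULTs reached 1 RPKM. The share of members at or above 1 RPKM was 49.2%, beside 57.1% of all listed genes.

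The upstream sequences of 2 pairs of neighbouring members are shown because their levels are set side by side throughout what follows. *Gstp1* and *Gstp2* were high in the same lines, whereas *Ugt2a1* and *Ugt2a2*, which start from different first exons and share 1771 exon bases, were high in different libraries. Each sequence holds the 150 bases before the RefSeq start on the gene's strand (GRCm38.p6, all on the minus strand), at chr19:4037913-4038062, chr19:4042222-4042371, chr5:87482259-87482408 and chr5:87490872-87491021 in the order printed. Capitals mark matches on either strand to TGAGTCA, the core of the antioxidant-responsive and AP-1 elements, and to TATAA, and overlapping TATAA matches on the 2 strands read TTATAA.
Gstp1: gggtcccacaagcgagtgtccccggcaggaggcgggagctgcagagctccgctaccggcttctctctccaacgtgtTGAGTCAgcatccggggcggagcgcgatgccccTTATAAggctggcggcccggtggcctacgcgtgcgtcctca
Gstp2: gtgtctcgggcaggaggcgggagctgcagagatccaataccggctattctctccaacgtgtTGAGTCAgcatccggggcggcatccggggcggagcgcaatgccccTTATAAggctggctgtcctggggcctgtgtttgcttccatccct
Ugt2a2: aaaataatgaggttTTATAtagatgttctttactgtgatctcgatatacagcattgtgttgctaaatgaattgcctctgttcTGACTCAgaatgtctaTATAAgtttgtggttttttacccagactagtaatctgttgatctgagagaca
Ugt2a1: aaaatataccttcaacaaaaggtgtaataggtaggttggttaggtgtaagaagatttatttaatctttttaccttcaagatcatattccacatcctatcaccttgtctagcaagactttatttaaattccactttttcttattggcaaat

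In a global alignment, the *Gstp1* and *Gstp2* sequences were identical in 71.9% of 167 aligned columns, and the *Ugt2a1* and *Ugt2a2* sequences in 55.1% of 176. TGAGTCA occurred in this window in 2.84% of 32851 RefSeq promoters and TATAA in 14.2%. Of the 67 promoters of the 55 members found in that table, 3 held TGAGTCA and 19 held TATAA. The *Ugt2a1* window held neither set of letters.

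*Ugt2a2* had the highest deposited RPKM of all members. On the RPKM scale it ranged from 722 to 1300 in the 8 Control libraries, with a median of 932, and from 836 to 1302 in the 8 HR libraries, with a median of 1021. Its mean over lines was 997 ± 146 RPKM (SD, n = 8 lines), it was the highest member in 16 of 16 libraries, and by mean RPKM it ranked 27 among all listed genes. The RPKM of *Ugt2a2* rests on fewer bases than its exons hold, since its RPKM and counts together correspond to a length of 282 bases, beside 2541 exon bases. Of these, 770 remain once the 1771 shared with *Ugt2a1* are taken out, and 2401 are shared with some annotated gene on the same strand. With CPM divided by those 770 bases its level was 363 CPM per kilobase and ranked 1, ahead of *Gstm1* at 169 and *Mgst3* at 121. With CPM divided by all 2541 exon bases it was 110 CPM per kilobase and ranked 3, behind that pair, so that its rank depends on the length chosen. Both divisions were chosen after the values were seen.

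The microsomal and cytosolic GSTs filled the next ranks. *Mgst3*, a membrane-bound glutathione transferase and peroxidase, had 295 ± 66.6 RPKM (SD, n = 8 lines), and *Gstm1*, a mu-class GST that conjugates many electrophiles, had 225 ± 53.4. *Gsta4*, an alpha-class GST known for the lipid peroxidation product 4-hydroxynonenal, had 142 ± 21.9 RPKM, and *Mgst1* had 103 ± 9.79 RPKM. On the deposited RPKM scale the order of the first 5 held in nearly all libraries, with *Mgst3* above *Gstm1* in 15 of 16 libraries, *Gstm1* above *Gsta4* in 15 and *Gsta4* above *Mgst1* in 15. These 5 genes made up 73.8% of the summed deposited RPKM of the members, and 41.8% was *Ugt2a2* alone. On CPM per kilobase of exon, with the largest overlap with another listed gene taken out, the order differed. *Gstm1* was at rank 2, *Mgst3* at rank 3, *Gsta4* at rank 4 with 84.8, and *Mgst1* at rank 7 with 37.0, behind *Sult1e1* at 76.2 and *Sult4a1* at 75.8. The RPKM and counts of *Mgst3* and *Mgst1* correspond to 41.5% and 36.0% of their exon bases.

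Below them the neighbours in the ranking overlapped. *Sult4a1*, a brain sulfotransferase with little known activity, had 88.4 ± 16.8 RPKM and *Sult1e1*, the estrogen sulfotransferase, had 86.2 ± 28.4 RPKM (SD, n = 8 lines), and *Sult4a1* was the higher of the pair in 10 of 16 libraries. *Gstp1*, the pi-class GST, had 68.9 ± 34.4 RPKM, and *Gsto1*, an omega-class GST with thioltransferase activity, had 63.2 ± 27.9 RPKM, the former being higher in 9 of 16 libraries. *Gstm5*, *Gstm2* and *Gsta3* had 49.9 ± 4.11, 49.8 ± 6.15 and 45.3 ± 8.09 RPKM, and *Gstm5* exceeded *Gstm2* in 8 of 16 libraries. The 15 highest members were the same in male and in female libraries, whereas *Ugt2a1* ranked 16 in males and 29 in females.

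**Figure D1:**
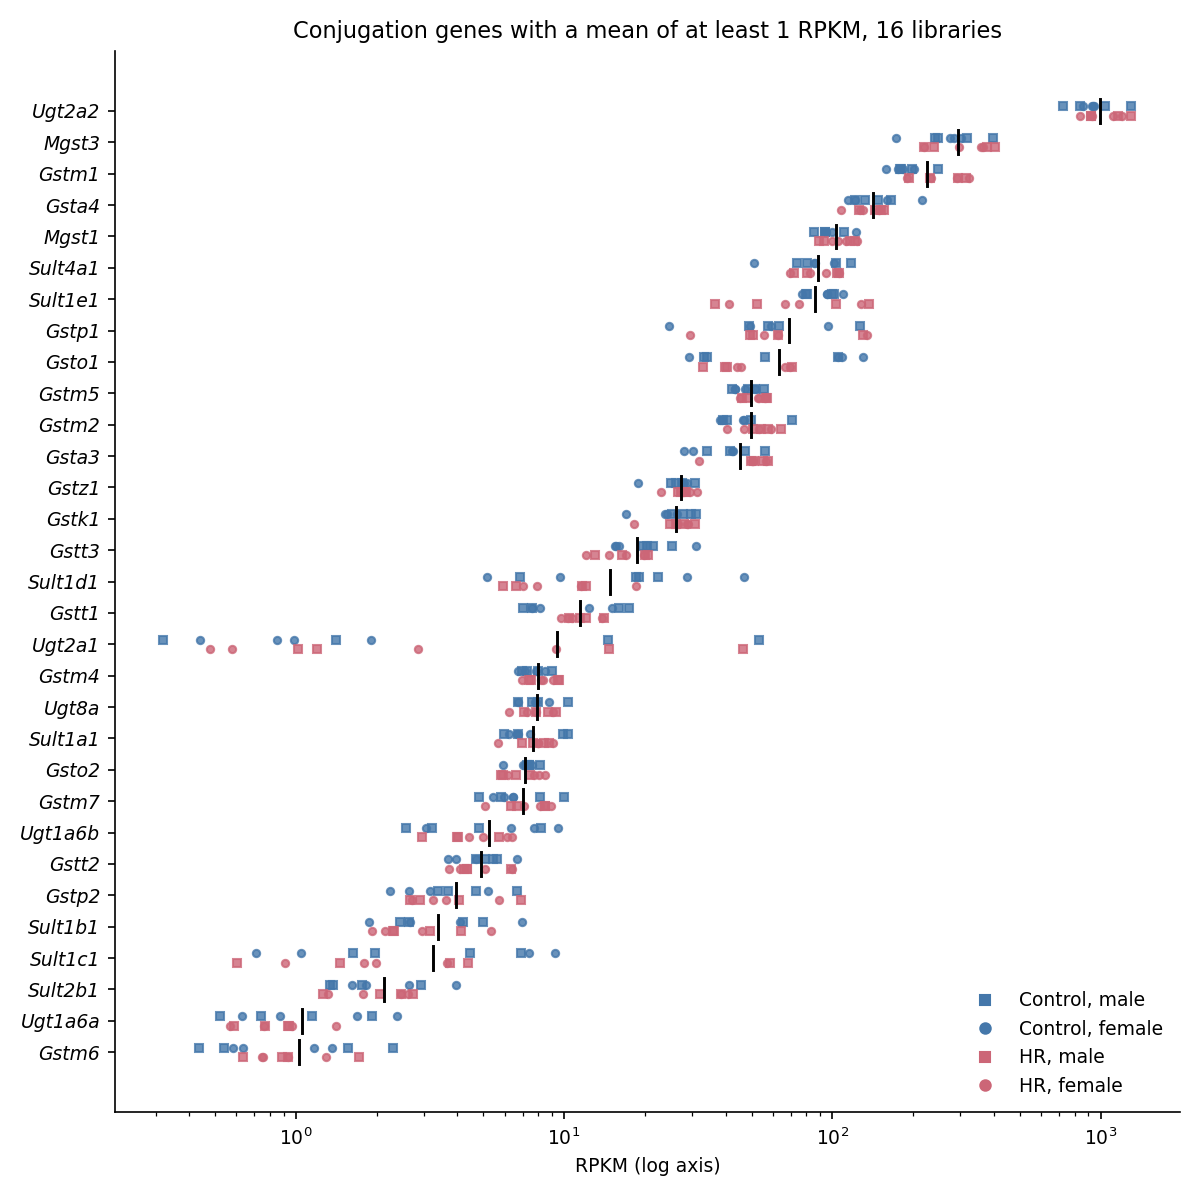
RPKM (log axis) of the 31 members with a mean of at least 1 RPKM in 16 libraries, ordered by mean. Squares are male and circles female libraries, blue for Control and red for HR, and the black bar is the mean of 8 lines. *Ugt2a2* stands alone near 1000 RPKM, and *Ugt2a1* spans 0.321 to 53.2 RPKM, the widest range plotted.

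The classes were unequal in their make-up. GSTs accounted for 48.5% of the summed member RPKM, UGTs for 42.8% and SULTs for 8.67%. These shares hold for the deposited RPKM only. *Ugt2a2* alone held 41.8%, and its RPKM corresponds to 282 bases beside 2541 exon bases. With CPM divided by all exon bases it was at 110 per kilobase, beside 76.2 for *Sult1e1* and 75.8 for *Sult4a1*. The UGT and SULT shares thus depend on the length chosen. Nearly all of the UGT sum came from *Ugt2a2*, as the 8 *Ugt1a* members together reached 6.95 RPKM and *Ugt8a*, which makes the galactolipids of myelin, had 7.95 ± 0.790 RPKM. The *Ugt1a* members share their last exons, so that reads there cannot be given to 1 of them. Among the SULTs, *Sult4a1*, *Sult1e1* and *Sult1d1* led, and the 8 *Sult2a* members had at most 2 counts each over all libraries.

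The members lie in clusters, with 51 of 63 within 500000 bases of another member in 10 clusters. The largest, on chromosome 5 from 86889767 to 87591594 (GRCm38), holds 13 members, from *Ugt2b34* through *Ugt2a1* and *Ugt2a2* to *Sult1b1*, *Sult1d1* and *Sult1e1*. Of these 13 members 5 were tested. The *Gstm* cluster on chromosome 3, from 107895821 to 108044894, holds 7 members, of which 6 were tested.

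The first comparison asked whether the lines of 1 linetype differed from each other by more than the male and the female pool of a line did. They did for many members. In edgeR's quasi-likelihood F test of 6 contrasts between lines, with Benjamini-Hochberg adjustment over all 16507 genes tested, 14 of 34 members had an adjusted p under 0.05, or 41.2%, beside 28.6% of all genes tested. The 14 were 6 GSTs (*Gstp1*, *Gstp2*, *Gstt1*, *Gstm1*, *Gstm6* and *Mgst3*), 6 SULTs (*Sult1b1*, *Sult1d1*, *Sult1e1*, *Sult2b1*, *Sult4a1* and *Sult5a1*) and 2 UGTs (*Ugt2a1* and *Ugt2a2*). *Gstt3* (adjusted p = 0.0513) and *Gsto1* (adjusted p = 0.0521) lay just outside the threshold of the edgeR test.

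The alignment kept no read that differed from the reference genome, so a line that carries other bases in a gene loses reads there. A difference between lines in level and a difference in sequence cannot be told apart in these tables. The count of 14 moved between 8 and 16 when a line was left out, and was 8 without Control line 2 or HR line 8 and 9 without HR line 3. In all 12 alternatives run for each gene, *Sult1e1*, *Gstp1*, *Gstt1* and *Sult4a1* kept an adjusted p under 0.05. *Gstm6*, *Mgst3*, *Sult1d1* and *Sult2b1* kept it in 11, *Gstp2* and *Sult5a1* in 10, *Gstm1* and *Ugt2a1* in 8, *Sult1b1* in 7 and *Ugt2a2* in 6. Among the 12, the fit without the 5 libraries with *Cyp2g1* above 2 RPKM held no library of HR line 6. Of HR line 3 and Control lines 4 and 5 it held only the female library. It cannot set those lines against the difference between their pools. Without HR line 3, *Gstm1*, *Mgst3*, *Sult1b1*, *Sult2b1* and *Ugt2a2* had an edgeR adjusted p of 0.242, 0.0572, 0.119, 0.0708 and 0.0524. Without Control line 2, *Gstm1*, *Sult1b1*, *Sult1d1*, *Ugt2a1* and *Ugt2a2* had 0.0567, 0.0962, 0.0898, 0.0666 and 0.0818, and without HR line 8, *Gstm1*, *Sult1b1*, *Sult5a1*, *Ugt2a1* and *Ugt2a2* had 0.119, 0.0534, 0.0948, 0.0682 and 0.111. Without HR line 7, *Gstm1*, *Sult1b1*, *Ugt2a1* and *Ugt2a2* had 0.0703, 0.0640, 0.0685 and 0.0633, without HR line 6 *Sult1b1* and *Ugt2a2* had 0.0624 and 0.0938, and without Control line 4 *Sult5a1* had 0.0678.

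**Figure D2:**
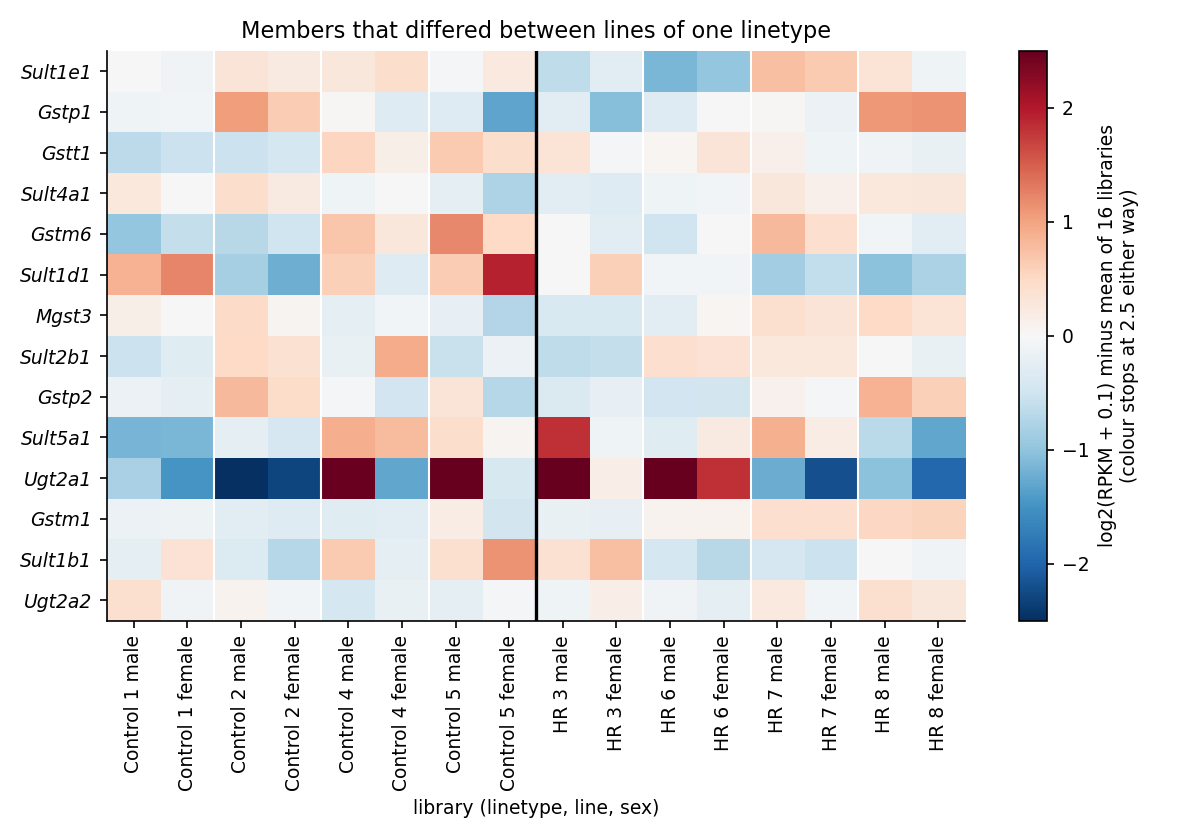
Deviation of log2(RPKM + 0.1) from the mean of 16 libraries for the 14 members that differed between lines, ordered by p, with both sexes of a line side by side and Control lines left of the black line. *Gstp1* and *Gstp2* are red in lines 2 and 8 of both sexes, *Sult1e1* is blue in HR lines 3 and 6, and *Ugt2a1* is dark red in single libraries.

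*Sult1e1*, which sulfates and so inactivates estrogens, gave the smallest p. It lies on chromosome 5 from 87575969 to 87591594. HR line 6 had 36.6 RPKM in males and 41.4 in females, HR line 3 had 52.2 and 66.7, HR line 8 had 103 and 75.3, and HR line 7 had 137 and 128. The 8 Control libraries ranged from 76.8 to 110 RPKM with a median of 95.4. The 2 lines with the lowest and the highest level were thus both HR lines, 3.40-fold apart in line means, with both sexes on the same side (edgeR adjusted p = 0.000852). Its highest adjusted p over 12 alternatives was 0.0131.

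*Gstp1* and *Gstp2* are adjacent on chromosome 19, from 4035407 to 4037985 and from 4040285 to 4046023. The upstream window printed for *Gstp2*, chr19:4042222-4042371, lies inside its span, since the RefSeq start used there differs from the start in GENCODE. Where RefSeq listed more starts for a gene, the first was taken. *Gstp1* had 127 RPKM in males and 96.6 in females of Control line 2, and 130 and 135 in HR line 8. The other 12 libraries had 24.7 to 63.2 RPKM, so the 4 libraries of these 2 lines stood apart, 1 line of each linetype. The edgeR adjusted p was 0.00369, and the highest and lowest line means (HR line 8 and Control line 5) differed 3.59-fold.

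*Gstp2* had the same 4 libraries at the top, with 6.65 and 5.20 RPKM in Control line 2 and 6.92 and 5.71 in HR line 8, and at most 4.70 RPKM elsewhere (edgeR adjusted p = 0.0257). Without Control line 2 or without HR line 8 its adjusted p was 0.103 and 0.132. Of the 75-base words of *Gstp1*, 70.8% occur in no other gene, and of those of *Gstp2* 49.9%, so reads that the pair shares were dropped and the pair is uncertain as separate genes.

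*Sult1d1*, a sulfotransferase of phenols and catecholamines, lies next to *Sult1e1* and had another profile. Control line 5 had 18.9 RPKM in males and 46.7 in females, Control line 1 had 22.4 and 28.7, and Control line 4 had 18.5 and 9.68. Control line 2 had 6.85 and 5.14, beside 5.91 to 7.89 in HR lines 7 and 8 and 11.6 to 18.5 in HR lines 3 and 6. The Control line means spanned 5.47-fold (edgeR adjusted p = 0.0137).

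*Sult4a1* and *Mgst3* had narrower ranges, with Control line 5 and HR line 3 lowest in both. Line means of *Sult4a1* ran from 62.3 RPKM in Control line 5 to 109 in Control line 2 (edgeR adjusted p = 0.00873), and those of *Mgst3* from 210 in Control line 5 to 384 in HR line 8 (edgeR adjusted p = 0.0154). The female library of Control line 5 had the lowest level of both, at 51.0 and 173 RPKM. It also had the lowest depth and the lowest summed level of vomeronasal sensory neuron markers, 1476 RPKM, and was the lowest library for 9 of 34 members. The next lowest sums of those markers were those of HR line 3, at 1859 RPKM in males and 1798 in females. Whether the make-up of these libraries had a part in these values was not tested. Without Control line 5 the number of members that differed between lines was 16.

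*Gstt1*, a theta-class GST, was low in Control lines 1 and 2 in both sexes (7.02 to 8.10 RPKM) and between 9.75 and 17.4 RPKM in all other libraries (edgeR adjusted p = 0.00807). *Gstm6* ran from 0.509 RPKM in Control line 1 to 1.83 in Control line 5 (edgeR adjusted p = 0.00998), *Sult2b1*, the cholesterol sulfotransferase, from 1.29 in HR line 3 to 2.86 in Control line 4 (edgeR adjusted p = 0.0209), and *Sult5a1* from 0.310 in Control line 1 to 1.92 in HR line 3 (edgeR adjusted p = 0.0280). *Sult1b1*, a thyroid hormone sulfotransferase, ran from 2.11 RPKM in HR line 6 to 5.58 in Control line 5 (edgeR adjusted p = 0.0390), and *Ugt2a2* from 792 in Control line 4 to 1253 in HR line 8 (edgeR adjusted p = 0.0475). All 5 tested members of the chromosome 5 cluster were among the 14, and 2 of the 6 tested members of the *Gstm* cluster were. These counts stand beside 28.6% of all genes tested. Of the 5, *Ugt2a2* kept its call in 6, *Sult1b1* in 7 and *Ugt2a1* in 8 of 12 alternatives, *Sult1d1* in 11 and *Sult1e1* in 12. *Ugt2a1* and *Ugt2a2* share 1771 exon bases.

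*Ugt2a1* had the widest range of line means of the 34 members tested, and it varied between libraries of 1 line as well. Its RPKM was 53.2 in males of Control line 5, 46.3 in males of HR line 3, 14.8 and 9.37 in males and females of HR line 6, and 14.6 in males of Control line 4. The other 11 libraries had 0.321 to 2.86 RPKM, with a median of 0.984. The high libraries were therefore 4 male pools and 1 female pool from both linetypes, and in Control lines 4 and 5 and HR line 3 the female pool of the same line was low.

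Those 5 libraries were also the 5 highest in *Cyp2g1* (2.27 to 19.7 RPKM, and at most 1.56 elsewhere), in *Cyp1a2* (0.690 to 4.82, and at most 0.121 elsewhere) and in *Stoml3*, a protein of olfactory sensory neuron cilia (1.10 to 9.51, and at most 0.611 elsewhere). Of the 5 libraries highest in *Gnal*, the G protein of olfactory sensory neurons, 4 were among them, and likewise for *Sec14l3*. The full lists did not separate the libraries, since *Adcy3*, *Ano2*, *Cyp2a5* and *Cbr2* were at high levels in all of them. The summed olfactory sensory neuron markers were 51.1 to 83.1 RPKM in Control and 60.7 to 78.6 RPKM in HR libraries, and those of olfactory sustentacular cells and Bowman glands 1011 to 1842 and 1173 to 2061 RPKM. No marker of either list was at 0 in every library, and *Ermn* stayed under 1 RPKM in all. The summed nasal gland markers had the same 5 highest libraries, at 110235 to 227786 RPKM and at most 95227 elsewhere. *Lcn3* and *Obp2a* of that list had the same 5, and *Lcn4*, *Lcn11*, *Obp1a*, *Bpifb9b* and *Dmbt1* did not. The match was thus not particular to olfactory markers. The part of olfactory tissue or of glands in the level of *Ugt2a1* was not tested.

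*Ugt2a2* did not share this pattern, with 722 to 923 RPKM in the 5 libraries and 862 to 1302 RPKM in the others. Of the counts on both genes, *Ugt2a1* took 1.31% to 6.48% in the 5 libraries and 0.0362% to 0.195% in the others, from 96 to 653 and from 4 to 27 counts. Only 4.01% of the 75-base words of *Ugt2a1* and 6.47% of those of *Ugt2a2* occur in no other annotated gene. Those shares also count words shared with *Gm43638*, annotated on the same strand. With only the bases common to the pair taken out, 799 and 770 exon bases remain. How much of each gene the counts rest on thus depends on which genes were counted. For *Ugt2a1* the edgeR test between lines gave an adjusted p of 0.0321, and 0.180 without the 5 libraries, which were the 5 highest in *Ugt2a1*. For *Ugt2a2* it gave 0.298 without them.

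**Figure D3:**
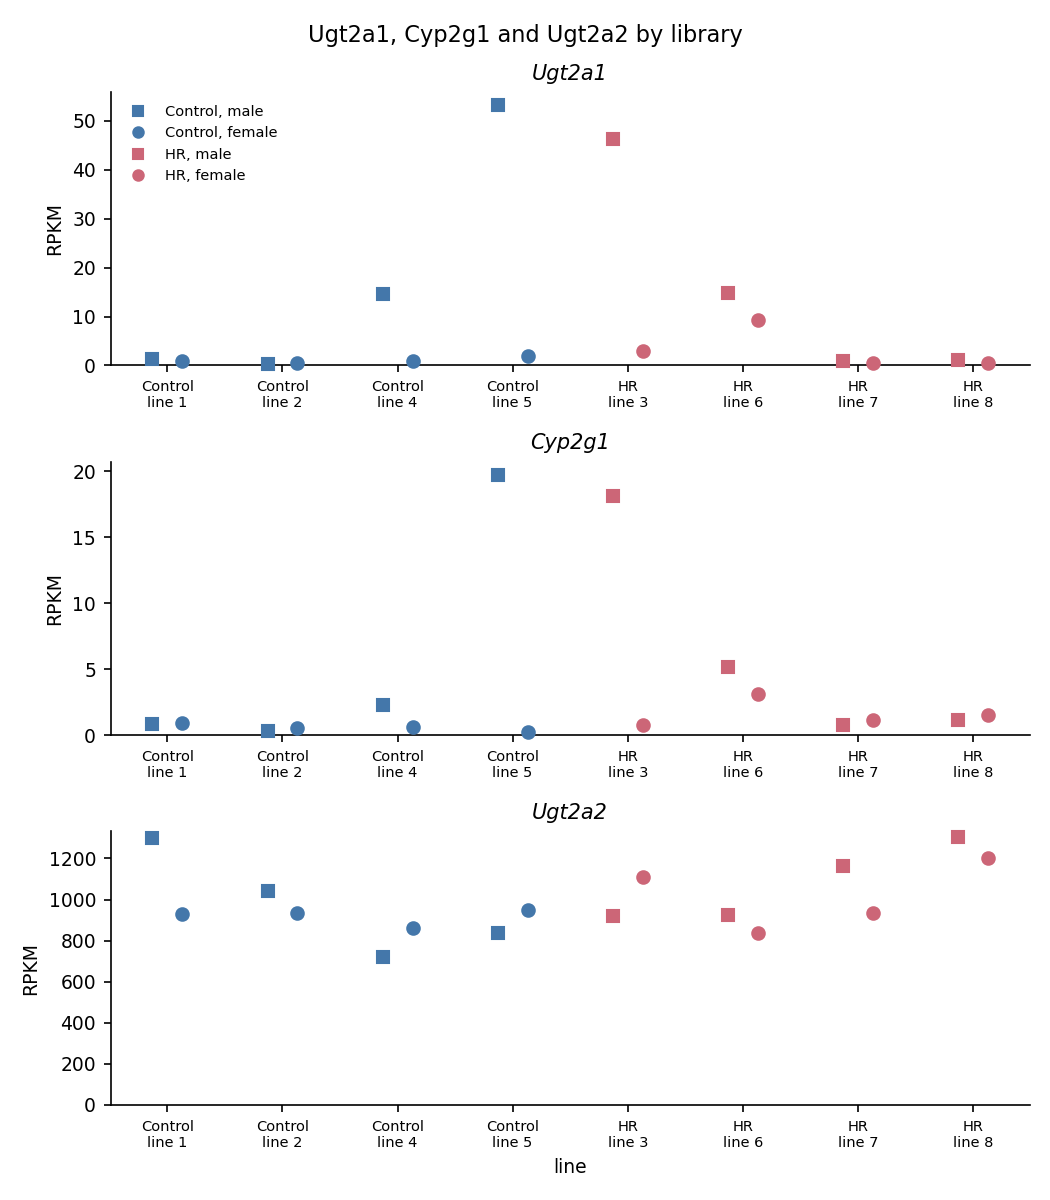
RPKM of *Ugt2a1* (top), of the olfactory marker *Cyp2g1* (middle) and of *Ugt2a2* (bottom) in 16 libraries by line, with squares for males, circles for females, blue for Control and red for HR. The 5 libraries above 9 RPKM of *Ugt2a1* are the 5 above 2 RPKM of *Cyp2g1*, and *Ugt2a2* does not follow them.

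A second set of libraries was high in *Gsto1* and *Ugt1a6b*, a UGT of small phenols. *Gsto1* had 105 RPKM in males and 130 in females of Control line 4, 105 and 109 in females of Control lines 1 and 5, and at most 70.5 in the other 12 libraries. The 5 highest libraries in *Gsto1* shared 4 with the 5 highest in *Ugt1a6b* and 4 with the 5 highest in *Foxj1*, the regulator of motile cilia. *Ugt1a6b* had 7 to 83 counts per library, and 25.2% of its 75-base words occur in no other gene. Females of Control line 4, the highest in *Gsto1*, had 6.96 RPKM of *Foxj1* and were not among its 5 highest. *Tekt1* and *Dnah5* had the same 5 highest libraries as *Foxj1*, and *Rsph1* and *Ccdc39* did not. The summed markers of ciliated respiratory cells (*Foxj1*, *Rsph1*, *Tekt1*, *Dnah5* and *Ccdc39*) were 30.5 to 65.7 RPKM in Control and 31.6 to 49.7 RPKM in HR libraries, with none at 0. These pairs were named after their values were seen, and the part of ciliated cells was not tested.

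The second comparison, the main one of the study's design, set the 8 HR against the 8 Control libraries. No member passed the test. With sex in the model, the quasi-likelihood test of edgeR gave 0 of 34 members with an adjusted p under 0.05, beside 0.0242% of the 16507 genes tested. At an unadjusted p under 0.05 there were 3 members (*Gstm1*, *Gsta3* and *Sult1d1*), or 8.82%, beside 3.3% of all genes. The 2 sexes of a line are not independent samples, and with 1 sum per line or with line as a random effect *Gstm1* alone of the 3 had a p under 0.05. DESeq2 and the fits on line sums or with line as a random effect also called 0 members. The log2 fold changes of the 34 members ran from -0.95 to 0.66 with a median of 0.02, beside a median of 0.00 over all genes tested, and 19 were above 0.

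**Figure D4:**
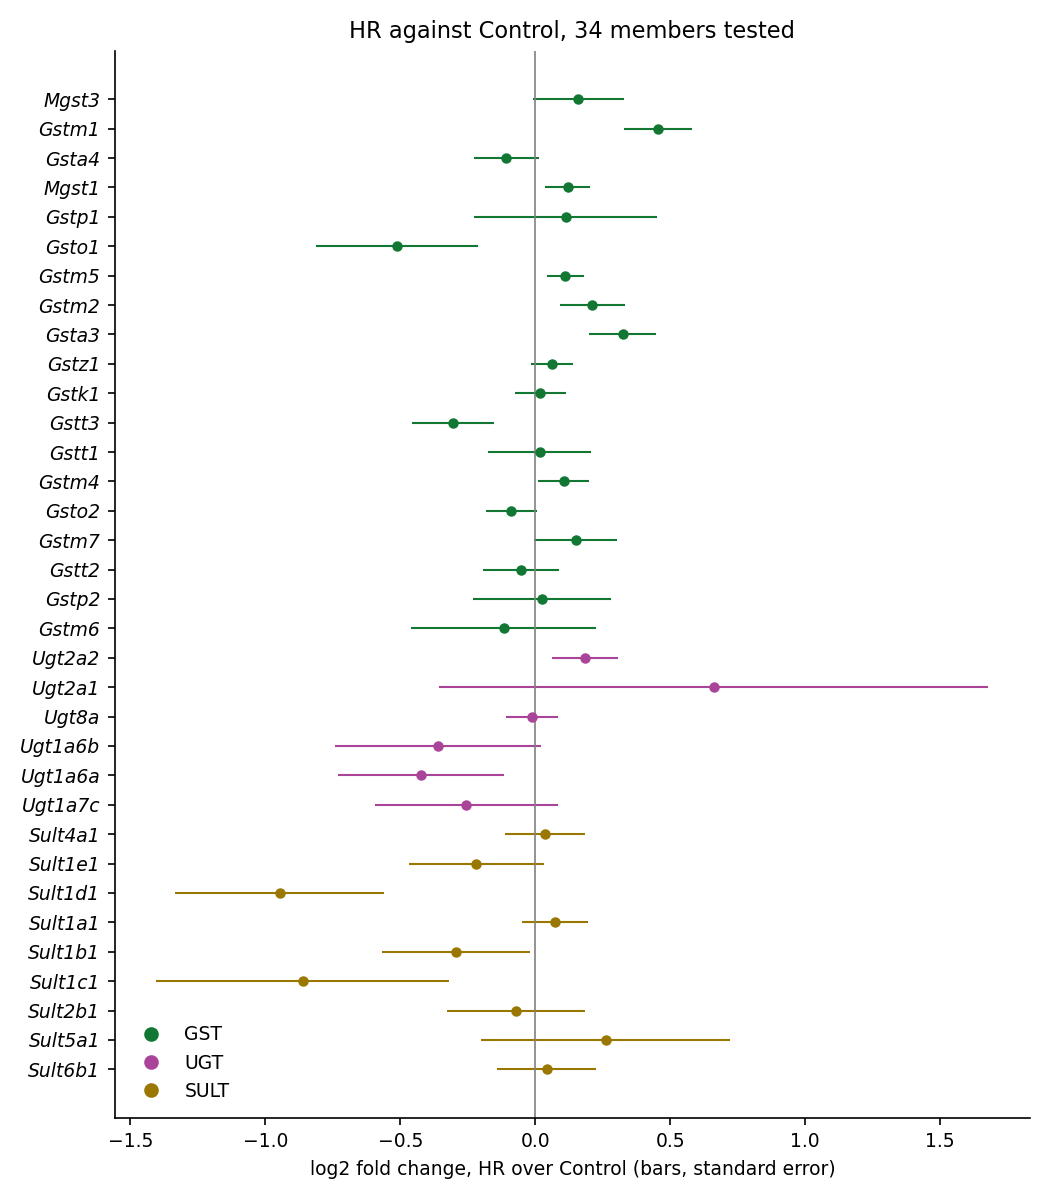
Log2 fold change of HR over Control for the 34 tested members with its standard error, in green for GSTs, purple for UGTs and ochre for SULTs, each class ordered by level. Values run from -0.95 for *Sult1d1* to 0.66 for *Ugt2a1*, whose standard error is the widest.

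*Gstm1*, on chromosome 3 from 108012255 to 108017973, gave the smallest p. Its RPKM was 193 in males and 190 in females of HR line 3, 231 and 234 in HR line 6, 294 and 293 in HR line 7, and 315 and 322 in HR line 8. Control libraries ranged from 159 to 248 RPKM with a median of 182, and 7 of them lay between 159 and 201. The 3 HR lines 6, 7 and 8 were thus above 7 of 8 Control libraries in both sexes, while HR line 3 lay within the Control range. The line means were 259 ± 57.8 RPKM in HR and 190 ± 12.8 in Control lines (SD, n = 4 lines each).

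The log2 fold change of *Gstm1* was 0.46 (standard error 0.13), with an unadjusted p of 0.00240 and an adjusted p of 0.696 in the edgeR test. Over 16 alternatives the fold change stayed between 0.34 and 0.63 and the adjusted p was at least 0.0815, the lowest without HR line 3. With 1 sum per line, the unadjusted p was 0.0274 in edgeR's test, and with line as a random effect 0.0106 in limma. In the exact two-sided permutation test of 4 against 4 line means of log2 CPM, which cannot go below 0.0286, p was 0.0857. *Gstm1* was also among the members that differed between lines of 1 linetype (edgeR adjusted p = 0.0377).

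*Gsta3*, an alpha-class GST, ranged from 31.7 to 57.7 RPKM in HR libraries, with a median of 50.9, and from 27.9 to 55.9 in Control libraries, with a median of 41.8. The groups overlapped, with the female library of HR line 3 (31.7 RPKM) among the Control values. The log2 fold change was 0.32 (standard error 0.13, edgeR unadjusted p = 0.0207, adjusted p = 0.9997). The unadjusted p was 0.0505 in edgeR with 1 sum per line and 0.0741 in limma with line as a random effect.

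*Sult1d1* had 5.91 to 18.5 RPKM in HR libraries and 5.14 to 46.7 in Control libraries, with medians of 9.73 and 18.7. Both libraries of Control line 2 lay among the lowest HR values. The log2 fold change was -0.95 (standard error 0.39, edgeR unadjusted p = 0.0264, adjusted p = 0.9997). With 1 sum per line the unadjusted p was 0.0756 in edgeR, and with line as a random effect 0.107 in limma. Without Control line 5 it was -0.61 and without Control line 2 it was -1.24.

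The next members by p were *Gstt3* (log2 fold change -0.31), *Gstm2* (0.21) and *Gsto1* (-0.51), with standard errors of 0.15, 0.12 and 0.30. Without Control line 1 the log2 fold change of *Gstt3* was -0.12, and without Control line 4 that of *Gsto1* was -0.19. The *Gstm* cluster had 5 of 6 tested members above 0, with a median of 0.13. Of the 6 UGTs tested 2 were above 0, and of the 9 SULTs 4.

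**Figure D5:**
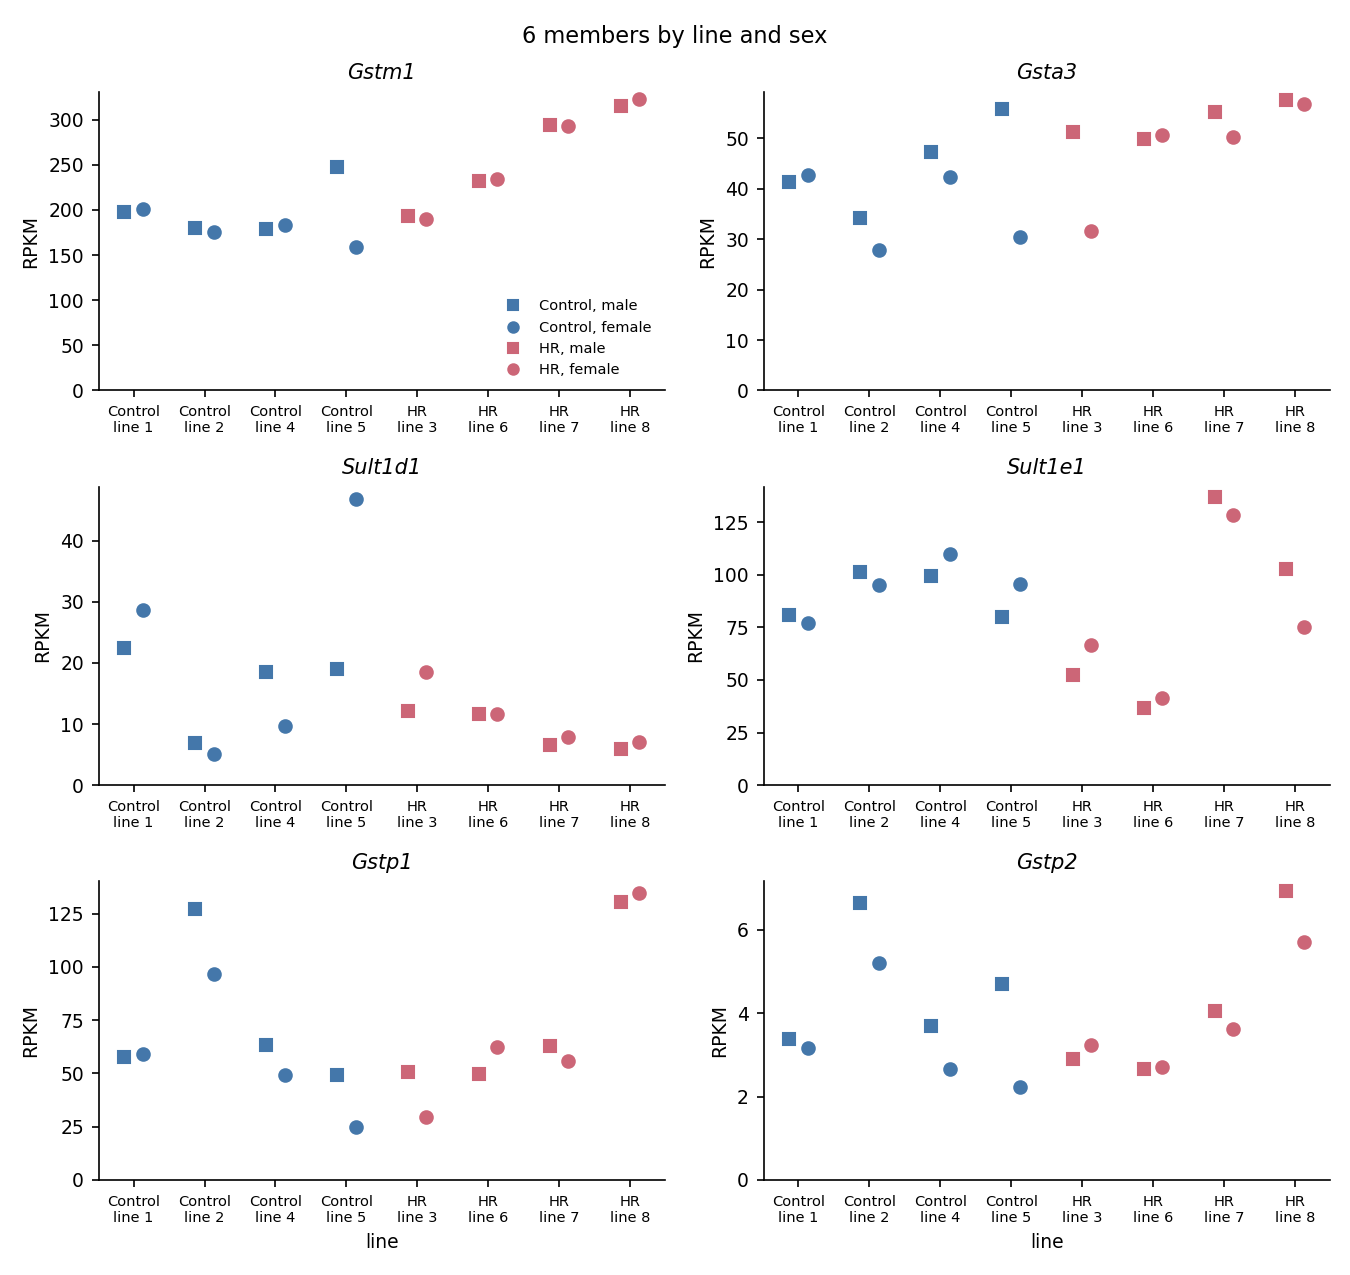
RPKM of *Gstm1*, *Gsta3*, *Sult1d1*, *Sult1e1*, *Gstp1* and *Gstp2* by line, with squares for males and circles for females, blue for Control and red for HR. *Gstm1* runs from 190 to 322 RPKM over the HR lines, and lines 2 and 8 stand above the rest in *Gstp1*.

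No member had 4 HR line means all above or all below the 4 Control line means on the log2 CPM scale, beside 0.473% of all genes tested with HR above and 0.327% with HR below. On the RPKM scale *Sult6b1* did, with line means of 0.0590 to 0.0881 RPKM in HR and 0.0250 to 0.0480 in Control lines, and the exact permutation p was 0.0286, the smallest possible. The share of all genes without overlap is not given for the RPKM scale, so this member has no background to be set against. The counts of *Sult6b1*, 6 to 46 per library, gave a log2 fold change of 0.04 (standard error 0.18, edgeR adjusted p = 0.9997). Between the 2 deposited scales its HR to Control difference moved by 1.02 on the log2 scale, beside at most 0.19 for the other 33 members tested. Its RPKM and counts correspond to a length of 8724 bases, beside 2125 exon bases in the annotation.

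Each sex was then taken alone, with 4 HR against 4 Control libraries. In males 0 of 34 members passed the edgeR test (0% of 16361 genes), and none had an unadjusted p under 0.05 (1.12% of all genes). In females 0 of 34 passed (0% of 16326 genes), and *Gstm1* had an unadjusted p under 0.05, or 2.94% of members beside 1.94% of all genes. The log2 fold change of *Gstm1* was 0.54 (standard error 0.17) in females and 0.37 (standard error 0.17) in males. The test of the interaction of sex and linetype called 0 of 34 members (0% of 16757 genes), and 0 had an unadjusted p under 0.05 (0.46% of all genes), with DESeq2 also calling 0. DESeq2 called 0 members in males and 0 in females. For *Gstm1* the interaction was 0.15 on the log2 scale (standard error 0.26).

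Female and male libraries were compared over all lines. In the edgeR test 0 of 34 members had an adjusted p under 0.05, beside 0.188% of genes, and 4 had an unadjusted p under 0.05, or 11.8%, beside 8.08% of genes. These were *Ugt2a1*, *Gstk1*, *Gsta3* and *Gstm2*, all with lower values in females, and 25 of the 34 members had a negative female to male fold change, with a median of -0.13 beside -0.01 over all genes tested. With line as a block, 0 members were called in edgeR and 10 had an unadjusted p under 0.05, or 29.4%, beside 16.7% of all genes. Of these 10, *Ugt1a6b* and *Gsto1* had higher and the other 8 lower values in females, and *Gstm2* had an unadjusted p of 0.0650 in that edgeR fit. DESeq2 called 1 member, *Ugt2a1*. Sex and sequencing run may coincide, since the tables hold 1 sex each, and then the pair cannot be told apart.

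*Ugt2a1* had a log2 fold change of -3.32 (standard error 1.07, edgeR adjusted p = 0.352), from a median of 0.918 RPKM in female and 8.002 RPKM in male libraries. Without the 5 libraries with *Cyp2g1* above 2 RPKM, a cut chosen after seeing the data, it was 0.02. Those were also the 5 libraries highest in *Ugt2a1*, and most were male pools. Leaving them out was thus bound to shrink the difference, and nothing is concluded from it. *Gstk1*, the mitochondrial and peroxisomal kappa-class GST, ranged from 17.0 to 29.0 RPKM in females and from 24.9 to 31.0 in males, with medians of 25.3 and 27.8, and its log2 fold change was -0.26 (standard error 0.09, edgeR adjusted p = 0.455). *Gsta3* and *Gstm2* had log2 fold changes of -0.32 and -0.26 (standard errors 0.13 and 0.12, edgeR adjusted p = 0.503 and 0.594).

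Genes that supply, remove or control the conjugates were read beside the members from a list of 47, of which 45 were listed and 44 tested. For HR against Control 0 of 44 had an adjusted p under 0.05, and at an unadjusted p under 0.05 there was 1 with higher and 3 with lower values in HR lines, or 9.09% in all, beside 3.3% of all genes. Between lines of a linetype 14 of 44 passed, or 31.8%, beside 28.6% of all genes. These were 5 of 16 genes of glutathione synthesis and redox, 2 of 5 of UDP-glucuronate supply, 3 of 8 of PAPS supply and sulfate removal, 2 of 6 of efflux and 2 of 9 of the regulators and their targets.

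For HR against Control the 3 smallest p belonged to *Abcc2*, an efflux pump of conjugates, at 0.0666 ± 0.0288 RPKM in HR and 0.134 ± 0.0849 in Control lines, to *Slc35d2*, a nucleotide sugar transporter, at 2.52 ± 0.268 and 3.09 ± 0.485 RPKM, and to *Bpnt1*, which breaks down the spent sulfate donor, at 35.4 ± 2.76 and 31.98 ± 2.26 RPKM (SD, n = 4 lines each). Their log2 fold changes were -0.96, -0.27 and 0.16, with an edgeR adjusted p of 0.9997 each. Between lines the 3 smallest p belonged to *Slc7a11*, the cystine transporter that feeds glutathione synthesis (1.85 RPKM in Control line 2 to 3.76 in HR line 7), to *Ggt7*, of the gamma-glutamyltransferase family (5.27 in Control line 1 to 9.36 in Control line 4), and to *Gpx2*, a glutathione peroxidase of epithelia (44.0 in HR line 7 to 112 in HR line 8). Their edgeR adjusted p were 0.000818, 0.00295 and 0.00390.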

How the data were processed

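RNA of the VNO was measured in 16 libraries, 1 per sex for each of 4 HR and 4 Control lines. The authors aligned single-end reads of 75 bases with STAR 2.6.1d to GRCm38 (both named in the submitters' processing notes, which also name Cufflinks), with 0 mismatches and 1 location allowed. The deposited counts are reads per gene without normalization, and the RPKM values are those the authors computed per gene length and library size. The counting tool and its use of strand are not given in the sources used here. The male count table also lists 4 summary entries, with 34.9% to 37.3% of its reads, which were left out together with 4 entries of 2 repeated names.

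Members were matched by symbol. Members and lists were chosen with earlier results of these data known, and the supply list and markers are background lists, not independent evidence. Counts were tested with edgeR 4.0.16 in R 4.3.3 (quasi-likelihood test, TMM, filterByExpr at a minimum count of 10, Benjamini-Hochberg adjustment over all genes tested, threshold 0.05). The models held sex and linetype, or sex and line. Alternatives used DESeq2 1.42.0, limma 3.58.1 and line sums. Cuffdiff, which the study used, needs alignments. Named members were the 12 of highest mean RPKM, those past any test, the 6 of smallest p for HR against Control and between lines, the 4 for sex, and any whose line means did not overlap.

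Counts of libraries of a group differed by a chi-square per degree of freedom of at least 31.2. Same-numbered libraries come from 1 line: after removal of group means, both libraries of a line correlated at 0.321 to 0.708 across genes. The p values measure the spread between pools, and the 2 sexes of a line are not independent samples. In simulated data for HR against Control (16421 genes, 200 changed), edgeR called 86% of 2-fold and 100% of 4-fold changes and 20 unchanged genes, and for lines within a linetype (16431 genes) 12% and 68%. The simulation drew all libraries independently and capped the spread of each gene. It left out the likeness of the 2 libraries of a line, so these rates cannot be carried over to the real tests. Positions and unique words come from GENCODE release M21 on GRCm38, and intervals cover counting error only.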

Additional observations from a re-analysis of the deposited data

Results flagged for a closer look

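The line means of log2 CPM of the 22 named members were screened for a line that stood apart from the other 3 of its linetype, by Dixon's ratio of the gap to the range against the 95% critical value for 4 lines. Of 44 groups of 4 lines, 4 exceeded it. Chance alone marks about 1 in 20 groups of genes picked without regard to the data. These members were named in part for a small p between lines in the same data, so that rate does not hold for them.

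*Gstp2* of Control line 2 was the highest of its linetype (ratio 0.952), at 5.93 RPKM beside 3.17 to 3.47 in the other Control lines. *Gstt3*, a theta-class GST, was highest in Control line 1 (ratio 0.898), at 28.2 RPKM beside 17.6 to 18.5. *Gstk1* was lowest in HR line 3 (ratio 0.857), at 21.6 RPKM beside 27.4 to 28.8, and *Gstm2* was lowest in HR line 3 at a ratio of 0.829006, at 49.0 RPKM beside 53.9 to 55.6, where the ratio just passes the critical value.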

How the results depend on the processing

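The number of members called for HR against Control was 0 in every alternative run, overall and in each sex, and likewise for the interaction. Between lines the 14 members called became 15 with DESeq2 size factors, 16 without a filter on low counts and 20 with DESeq2, and 8 to 16 with 1 line left out, while leaving out the 5 libraries with *Cyp2g1* above 2 RPKM, an alternative chosen after seeing the data, gave 17. For female against male, DESeq2 called 1 member where edgeR called 0, and without those 5 libraries the log2 fold change of *Ugt2a1* turned from -3.32 to 0.0199. Those 5 were also the 5 highest in *Ugt2a1*, so a shift of that kind was bound to follow. In the permutation test over line means, 0 members had p under 0.05 on the log2 CPM scale and 1, *Sult6b1*, on log2(RPKM + 1) and on log2(RPKM + 0.1). The share of all genes is not given for either RPKM scale. The cause of these changes was not tested. The 31 members with at least 1 RPKM became 36 with a threshold of 0.1 RPKM. The level of *Ugt2a2* moved from 997 RPKM to 363 CPM per kilobase of exon not shared with *Ugt2a1* and 110 per kilobase of all its exons, and depends on the length chosen.

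Over all genes, HR against Control called 4 in the main test and 30 with DESeq2, 0 with line sums and 0 with line as a random effect, 0 without the 5 libraries, and 1 to 17 with a line left out. Males and females alone called 0 each, 11 and 5 with DESeq2, and 0 to 1 and 0 to 2 with a line left out. Female against male called 31, and 90 with the replicate block of line, 182 with DESeq2, 19 without the filter and 13 to 25 with a line left out. Lines within linetype called 4714, 7190 with DESeq2 and 3076 to 4952 with a line left out. The replicate block changed no call of a member for sex or for the interaction.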
